A study of Mus musculus with 12 samples.

Results

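Of 10 genes that carry, import, store, export, oxidise or sense iron in the brain, 1 was called lower after Dnmt1 knockout and none higher. Dnmt1 is a DNA methyltransferase gene, and its knockout was directed at the oligodendrocyte lineage. Calls were made at a false discovery rate of 10%, and 3.15% of all rows tested were called in the cortex. The gene called lower was Trf, which encodes transferrin. The 10 genes, Trf, Tfrc, Slc11a2, Fth1, Ftl1, Slc40a1, Cp, Heph, Aco1 and Ireb2, were taken by symbol from the 23354 symbols of a table of FPKM values, fragment counts scaled for transcript length and sequencing depth. Each had 1 row in the table, and all 10 passed the filter for testing, which left out rows averaging under 0.5 FPKM. Whole cortex at postnatal day 16 was profiled by RNA sequencing of poly(A) RNA in 12 libraries from 12 mice on a C57BL/6 background, 3 in each of 4 groups. Dnmt1 CKO mice were Olig1cre/+;Dnmt1flox/flox and Dnmt1 Control mice were Olig1+/+;Dnmt1flox/flox. Dnmt3a CKO mice were Olig1cre/+;Dnmt3aflox/flox and Dnmt3a Control mice were Olig1+/+;Dnmt3aflox/flox. All control mice therefore carried 2 floxed alleles but no cre, and every CKO mouse also had cre in place at 1 Olig1 allele. Olig1 is a transcription factor gene of the oligodendrocyte lineage, so recombination was directed at that lineage, whereas the RNA came from all cells of the cortex.

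The files hold no read totals. The steps between low FPKM values put the depth of the 12 libraries within 0.857 to 1 of the deepest, or about 34300000 to 40100000 fragments per library when transcript lengths are used. At that depth Heph, the least abundant of the 10, rested on about 150 fragments in its lowest library, a counting error of 8.15%, and Fth1, the most abundant, on about 30505, a counting error of 0.573%. These figures cover counting error only.

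Iron travels bound to transferrin, which the transferrin receptor takes into the cell. Ferritin, a shell of heavy and light chains, stores iron inside the cell, and ferroportin is the exporter. In the brain, oligodendrocytes are known as the cells that hold much of the iron and that make transferrin. Iron regulatory proteins bind a short stem and loop, the iron-responsive element, in the messages of several of these genes when iron is scarce. Bound near the start of a message the proteins block translation, and bound after the coding part they protect the message from decay.

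The stem and loop was searched for in the annotated transcripts of the 10 genes, because it is the sequence by which iron acts on several of these messages. The pattern was a C, 5 bases, CAGTGN, and 5 bases that pair with the first 5, on the transcript strand, with G-T pairs allowed. It was found at 7 sites of 4 members (build GRCm38, which is mm10, GENCODE M21). Each site is given 5′ to 3′ on the transcript strand, with the loop CAGTGN in capitals.
Tfrc, 3′ UTR, plus strand, chr16:32631219-32631247: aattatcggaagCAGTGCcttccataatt
Tfrc, 3′ UTR, plus strand, chr16:32631598-32631626: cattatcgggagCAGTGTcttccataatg
Tfrc, 3′ UTR, plus strand, chr16:32631663-32631691: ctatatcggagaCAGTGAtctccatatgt
Tfrc, 3′ UTR, plus strand, chr16:32631710-32631738: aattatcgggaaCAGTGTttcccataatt
Fth1, 5′ UTR, plus strand, chr19:9982732-9982760: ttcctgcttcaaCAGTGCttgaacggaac
Ftl1, 5′ UTR, minus strand, chr7:45459779-45459807: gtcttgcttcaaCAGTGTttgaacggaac
Slc40a1, 5′ UTR, minus strand, chr1:45925465-45925493: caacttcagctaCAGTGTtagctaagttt
The same pattern stood in a 5′ UTR of 23 of 12487 tested genes with such a region (0.184%) and in a 3′ UTR of 102 of 12524 (0.814%). The other 6 members held no match in these transcripts, which says only that these letters were not there.

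Before the comparisons, the targeted genes were read in every library. Dnmt1, the maintenance methyltransferase, was at 10.6, 10.2 and 9.78 FPKM in Dnmt1 Control and at 7.26, 9.11 and 9.09 FPKM in Dnmt1 CKO. The groups did not overlap, but the difference did not pass the test (limma, adjusted p = 0.29). Dnmt3a, a de novo methyltransferase, was at 31.1, 16.9 and 28.7 FPKM in Dnmt3a Control and at 13.6, 14.2 and 15.4 FPKM in Dnmt3a CKO. These groups did not overlap either, and the difference did not pass the test (log2 fold change -0.78, limma, adjusted p = 0.66). By these values the library labelled Dnmt3a Control replicate 2 had a Dnmt3a level close to the CKO group and below its fellow controls. Its Olig1 level, 49.8 FPKM, lay with the controls of that line (48.4 and 44.1 FPKM) and above the CKO libraries (30.6, 38.8 and 32.2 FPKM). In the Dnmt1 line Olig1 was at 50.9, 46.6 and 42 FPKM in control and at 20.6, 21.9 and 18.4 FPKM in CKO. Without the library labelled Dnmt3a Control replicate 2, no member passed the test in the Dnmt3a line either, and the values without it are given below for Trf, the ferritin chains and Slc40a1.

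Averaged over the 12 libraries, the ferritin chains led the 10 genes, with Fth1 at 647 FPKM and Ftl1 at 229 FPKM. Tfrc (30.7 FPKM) and Trf (27.8 FPKM) came next and their ranges over libraries overlapped, Trf being the higher in 7 libraries. Ireb2 followed at 17.3 FPKM, below Trf in every library outside Dnmt1 CKO and above it in the 3 Dnmt1 CKO libraries. Slc11a2 (10.3 FPKM), Aco1 (8.64 FPKM), Slc40a1 (4 FPKM) and Cp (2.48 FPKM) came after these, and the ranges of the last 2 overlapped in 1 library, Dnmt1 CKO replicate 3. Heph was lowest at 1.13 FPKM.

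**Figure D1:**
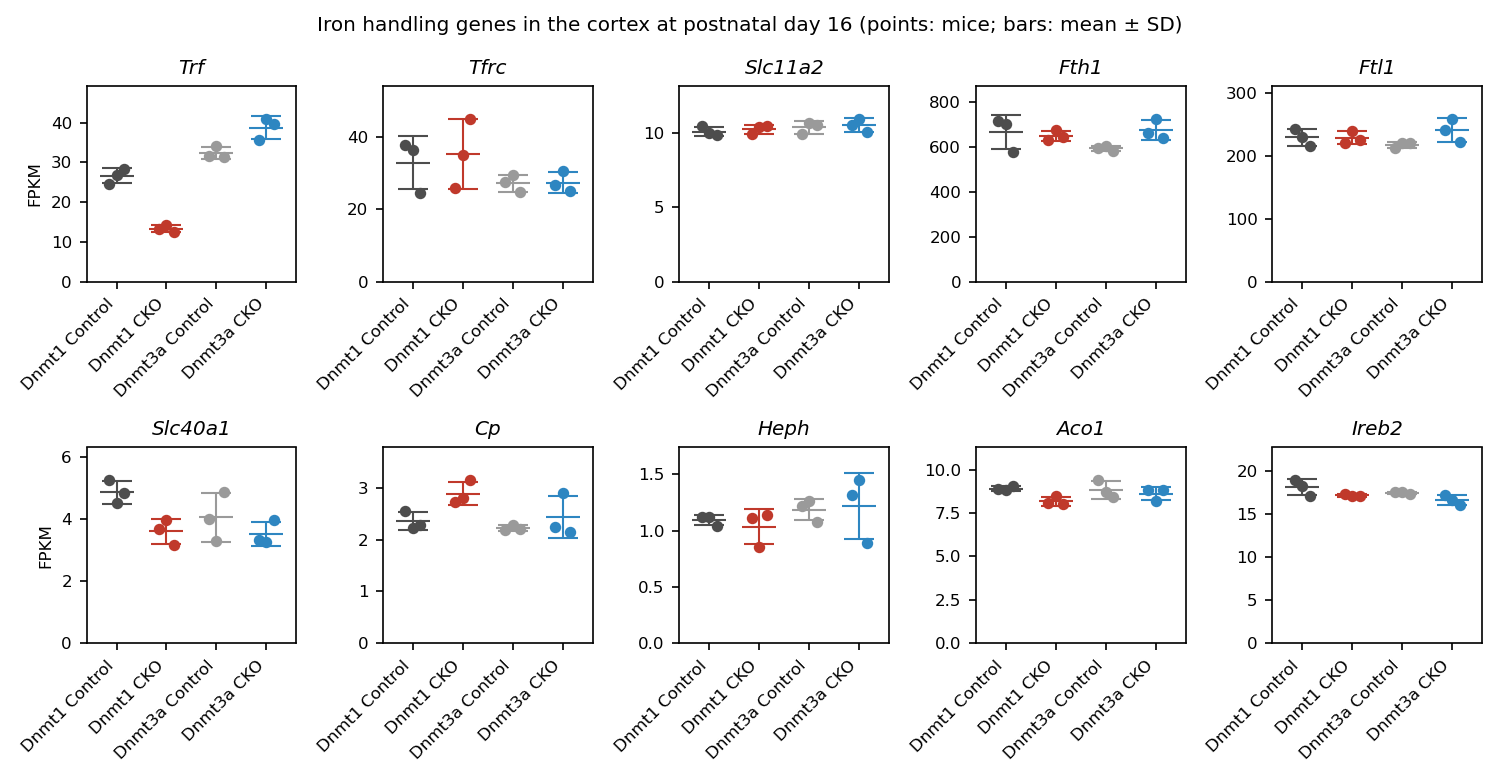
FPKM of the 10 iron handling genes in each library, 1 panel per gene with its own axis, with points for the 3 mice of each group and a bar for the group mean. Trf in Dnmt1 CKO lies between 12.5 and 14.2 FPKM, below every other library, whereas the other genes change by less between control and CKO.

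The first comparison asked which of the 10 genes differed between Dnmt1 CKO and Dnmt1 Control, and the same was asked in the Dnmt3a line. Levels were compared by limma on log2(FPKM + 0.1), with p-values adjusted over all 14115 rows tested and a false discovery rate (FDR) of 10%. In the Dnmt1 line 1 of the 10 genes passed the test, and it was lower, against a background of 3.15% of all rows tested (120 rows higher and 324 lower). An unadjusted p under 0.05 was found there for 4 members, and for 2113 of the 14115 rows. In the Dnmt3a line no member passed by limma (2 had an unadjusted p under 0.05, as had 1037 of the 14115 rows). The background in that line was 0.0142%, or 2 rows. The CKO effect differed between the lines for 1 member against a background of 2.13%. The control and CKO values did not overlap for 4 members in the Dnmt1 line, Trf, Slc40a1, Cp and Aco1, where 20.8% of all rows did not. They did not overlap for 4 members in the Dnmt3a line, Trf, Fth1, Ftl1 and Ireb2, where 12.8% of all rows did not. The median log2 fold change of the 10 genes was -0.052 in the Dnmt1 line and 0.023 in the Dnmt3a line, beside -0.02 and 0.0067 over all rows tested.

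**Figure D2:**
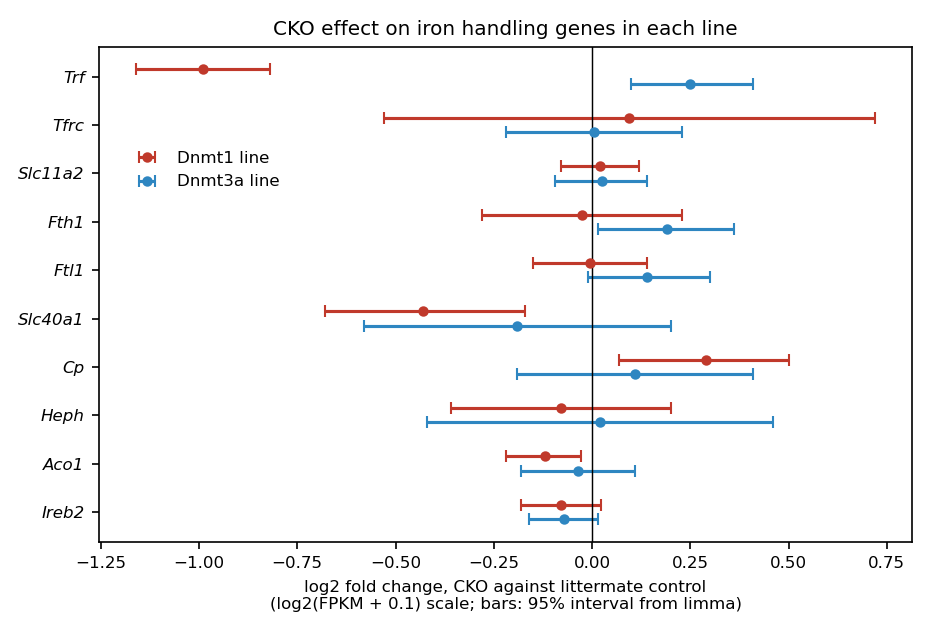
Log2 fold change of CKO over control for the 10 genes in the Dnmt1 and the Dnmt3a line, with 95% confidence intervals from limma (3 mice a group). Trf lies at -0.99 in the Dnmt1 line and at 0.25 in the Dnmt3a line, and it is the only one of the 10 past 10% FDR, in the Dnmt1 line.

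Transferrin is the iron carrier. Its gene Trf (minus strand, chr9:103204001-103230444, 17 exons) was at 24.6, 26.8 and 28.4 FPKM in Dnmt1 Control and at 13.3, 14.2 and 12.5 FPKM in Dnmt1 CKO. Every CKO library lay well below every control library. The group mean of 26.6 ± 1.91 fell to 13.3 ± 0.845 FPKM (SD, n = 3), to 50.2% of control, a log2 fold change of -0.99 with a standard error of 0.069 (limma, adjusted p = 0.0028). The call held in every alternative run, with adjusted p between 1e-05 and 0.047. In a bulk sample, fewer cells that express a gene and less RNA per cell cannot be told apart.

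In the Dnmt3a line Trf was at 31.7, 34.1 and 31.3 FPKM in control and at 35.5, 41 and 39.6 FPKM in CKO. All 3 CKO libraries were above all 3 controls, with means of 32.4 ± 1.52 and 38.7 ± 2.84 FPKM (SD, n = 3), or 119% of control. The log2 fold change was 0.25 (95% confidence interval 0.099 to 0.41) and did not pass the adjusted test (limma, adjusted p = 0.66), nor did the value of 0.29 without the library labelled Dnmt3a Control replicate 2 (limma, adjusted p = 0.72). The CKO effects of both lines differed by -1.24 on the log2 scale, with a standard error of 0.099 (limma, adjusted p = 4.3e-05). Without that library the difference was -1.28 (limma, adjusted p = 0.00021).

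The 50-base stretches of the annotated Trf transcripts were shared with another annotated gene for 59.4% of their number. Nearly all of these, 58.5%, were shared with Gm20425, a gene annotated over the same locus (minus strand, chr9:103190208-103230307) that has no row in the table. Reads of the 2 genes could not be told apart over these stretches. All other genes together shared 0.901%.

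Among all rows tested, the 5 whose levels over the 12 libraries were most like those of Trf were Plekhg3, Cpm, Padi2, Lpar1 and Gpr37. They were chosen for this likeness, so their course along with Trf is a description. Likeness was the root mean square difference of log2 values, each gene centred on its own mean, and it was 0.129 to 0.149 for these rows, with a median of 0.594 over all rows. In the Dnmt1 line their log2 fold changes were -1.05 for Plekhg3, -0.78 for Cpm, -0.71 for Padi2, -1.27 for Lpar1 and -1.07 for Gpr37. They were 0.019, 0.29, 0.05, 0.19 and -0.0085 in the Dnmt3a line, in the same order. Padi2 encodes a peptidylarginine deiminase, Lpar1 a receptor for lysophosphatidic acid, Gpr37 an orphan receptor and Cpm a carboxypeptidase. Gpr37, for example, averaged 8.15 FPKM in Dnmt1 Control, 3.83 FPKM in Dnmt1 CKO, 10.4 FPKM in Dnmt3a Control and 10.3 FPKM in Dnmt3a CKO.

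**Figure D3:**
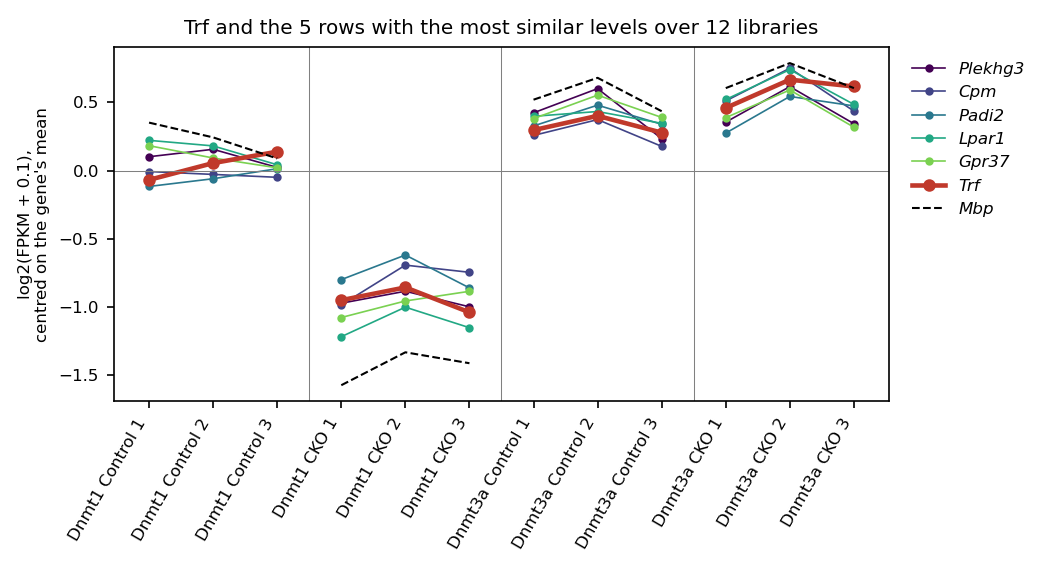
Log2(FPKM + 0.1) of Trf, its 5 most similar rows and Mbp (dashed) in each library, centred on the mean of each gene over the 12 libraries. The 5 rows were chosen for their likeness to Trf in these libraries, so they are low with it in the 3 Dnmt1 CKO libraries by choice, and Mbp, whose log2 fold change there was -1.67, drops further.

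Markers of the cells that make up the cortex were read beside Trf. The oligodendrocyte list, 12 genes led by Mbp of the myelin sheath (mean 1071 FPKM), had 12 members lower in Dnmt1 CKO, with a median log2 fold change of -1.86. Its summed level was 2269, 2143 and 1949 FPKM in Dnmt1 Control but 581, 678 and 646 FPKM in Dnmt1 CKO. The sums of Dnmt3a Control, 2651, 2940 and 2472 FPKM, overlapped with those of Dnmt3a CKO, 2696, 3073 and 2724 FPKM, and no member passed the test in that line. The 12 log2 fold changes ran from -2.45 to -0.81, and that of Trf, -0.99, lay between those of Mbp, -1.67, and of Sox10, -0.81. Sox10, a transcription factor gene of the lineage, was at 14.6, 14 and 13.6 FPKM in control against 7.9, 8.66 and 7.41 FPKM. Trf stood at 31.7, 36.7 and 40.2% of Mag, the myelin-associated glycoprotein, in Dnmt1 Control and at 81.5, 66.1 and 65.7% of it in Dnmt1 CKO. The share in Dnmt3a mice was 34.8, 35.9 and 39.8% in control and 41.2, 40.6 and 44.4% in CKO. The part of the oligodendrocyte markers in the Trf result was not tested.

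**Figure D4:**
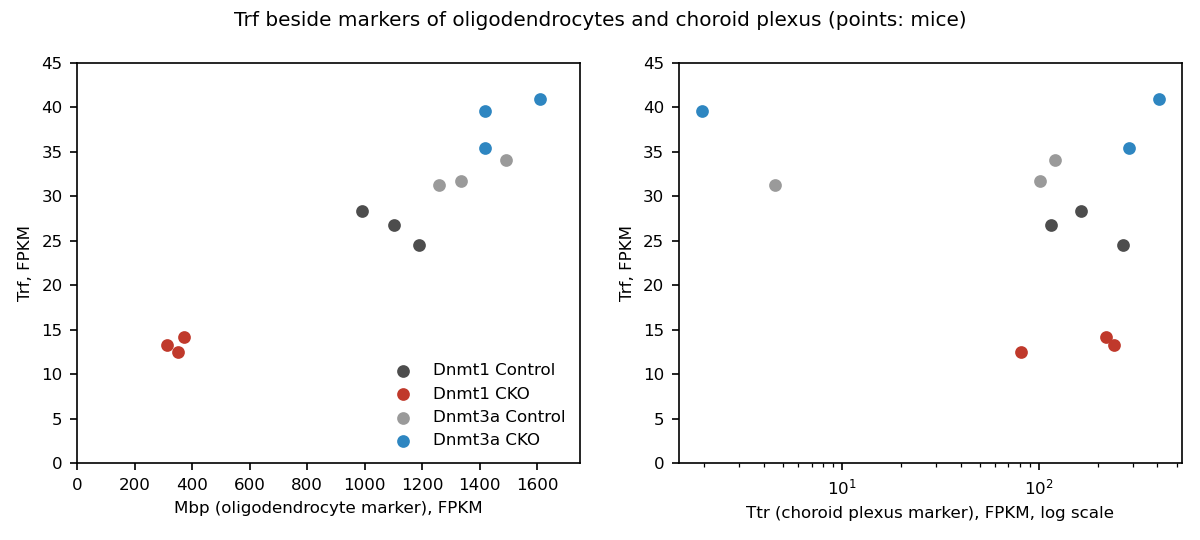
Trf level against the level of the oligodendrocyte marker Mbp (left) and of the choroid plexus marker Ttr (right, log axis), all in FPKM, with 1 point per mouse coloured by group. The 3 Dnmt1 CKO libraries stand apart at low Trf and at Mbp of 313 to 370 FPKM, and the 2 libraries with the lowest Ttr, 4.57 and 1.94 FPKM, have Trf at 31.3 and 39.6 FPKM.

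Of the 7 markers of oligodendrocyte progenitors, led by Gpr17 (33.7 FPKM), 3 passed the test and were lower in Dnmt1 CKO. These were Neu4 (log2 fold change -0.65), Gpr17 (-0.56) and Pdgfra (-0.30), beside 3.15% of all rows called in that line. The rest did not pass, at -0.21 for Lhfpl3, -0.10 for Ptprz1, -0.00062 for Cspg4 and 0.061 for Vcan. The median of the 7 was -0.21. Of the 8 astrocyte markers, led by the glutamate transporter gene Slc1a2 (339 FPKM), 1 was higher, Gfap (log2 fold change 0.45, limma, adjusted p = 0.0065). The log2 fold change was above 0 for 4 of the 8 and below 0 for 4, with a median of -0.0054. Control and CKO values did not overlap for 4 of them, where 20.8% of all rows did not. Of these, Gfap alone was higher. The lower ones, Aqp4 (-0.28), Slc1a2 (-0.11) and Gja1 (-0.11), did not pass the test (limma, adjusted p = 0.14, 0.34 and 0.28). C1qa and C1qb, complement genes of microglia that are named here after their values were seen, also rose in Dnmt1 CKO. C1qa was at 22.9, 21.3 and 22.9 FPKM in control against 28.6, 27.6 and 28.6 FPKM (log2 fold change 0.34, limma, adjusted p = 0.013). C1qb was at 21.8, 22.1 and 22.1 FPKM against 31.4, 28.4 and 28.6 FPKM (0.42, limma, adjusted p = 0.01). Neither had groups that overlapped. The other markers of microglia read here did not pass the test, with log2 fold changes of -0.16 for P2ry12, -0.018 for Cx3cr1, 0.033 for Csf1r, 0.042 for Tmem119 and 0.095 for Aif1. The part of microglia in the results for the 10 genes was not tested. No neuronal marker of 8, led by Snap25 (547 FPKM), no endothelial marker of 7, led by Cldn5 (23.9 FPKM), and no meningeal marker of 7, led by Igf2 (29.5 FPKM), passed the test in that line by limma. An unadjusted p under 0.05 was found for 0 of the neuronal, 3 of the endothelial and 1 of the meningeal markers. The same held for 2113 of the 14115 rows tested. Of the 7 endothelial markers 6 had a log2 fold change below 0 (median -0.16), as had all 7 meningeal markers (median -0.19). No marker in these lists was at 0 in any library.

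The choroid plexus also makes transferrin. Its 9 markers, of which 7 were tested, were led by Ttr, the transthyretin gene (167 FPKM), and none passed the test in either line. Their summed level was uneven between libraries. Dnmt1 Control had 280, 122 and 171 FPKM and Dnmt1 CKO had 252, 229 and 86.9 FPKM. Dnmt3a Control had 107, 127 and 8.11 FPKM and Dnmt3a CKO had 300, 426 and 4.57 FPKM. The libraries with the least of these transcripts, replicate 3 of either Dnmt3a group, had Trf at 31.3 and 39.6 FPKM, within or close to the range of the other 2 libraries of their groups. The part of the choroid plexus in the Dnmt3a values was not tested further. Blood was followed by 6 haemoglobin genes, of which 5 were in the table and 4 were tested, led by Beta-s, a beta-globin gene (147 FPKM). None passed the test in the Dnmt1 line by limma (3 had an unadjusted p under 0.05, as had 2113 of the 14115 rows). Their summed level was 182, 306 and 198 FPKM in control and 154, 111 and 110 FPKM in CKO.

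Iron enters cells through the transferrin receptor and, from the endosome, through the divalent metal transporter. Tfrc, the receptor gene (plus strand, chr16:32608920-32632794, 19 exons), was at 37.8, 36.3 and 24.4 FPKM in Dnmt1 Control and at 25.8, 35 and 45.1 FPKM in Dnmt1 CKO. These groups overlapped widely, with a coefficient of variation of 22.4% and 27.4%, the widest among the 10 genes in that line. The log2 fold change was 0.094 (95% confidence interval -0.53 to 0.72), which does not include a change as large as that of Trf. Tfrc of the Dnmt3a line was at 27.5, 29.4 and 24.8 FPKM in control and at 26.7, 30.5 and 25 FPKM in CKO, with nearly equal means of 27.3 ± 2.3 and 27.4 ± 2.84 FPKM (SD, n = 3).

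Slc11a2, the divalent metal transporter gene (minus strand, chr15:100387898-100425072, 16 exons), had the narrowest spread of the 10 genes over the libraries. It was at 10.5, 10 and 9.88 FPKM in Dnmt1 Control and at 9.95, 10.4 and 10.5 FPKM in Dnmt1 CKO, and its 12 values ran from 9.88 to 11 FPKM. Its log2 fold change was 0.02 in the Dnmt1 line (95% confidence interval -0.08 to 0.12) and 0.025 in the Dnmt3a line (limma, adjusted p = 0.88 and 0.92).

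Ferritin stores iron. Fth1, the gene of the heavy chain with its ferroxidase centre (plus strand, chr19:9980598-9985098, 5 exons), was at 716, 702 and 578 FPKM in Dnmt1 Control and at 633, 676 and 643 FPKM in Dnmt1 CKO. The control libraries spanned the CKO libraries, and the log2 fold change was -0.026 (95% confidence interval -0.28 to 0.23). In the Dnmt3a line Fth1 was at 595, 606 and 582 FPKM in control and at 662, 727 and 642 FPKM in CKO. The CKO libraries were all above the controls, at 114% of their mean, with a log2 fold change of 0.19 that did not pass the adjusted test (limma, adjusted p = 0.66). It was 0.20 without the library labelled Dnmt3a Control replicate 2 (limma, adjusted p = 0.73). The CKO effects differed by -0.21 between the lines (limma, adjusted p = 0.54). Without Dnmt1 Control replicate 3, the control library with the lowest Fth1, that difference was -0.31 and passed the threshold (limma, adjusted p = 0.095). That library also had high Xist, the RNA of the inactive X chromosome (49.4 FPKM), whose part here was not tested.

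Ftl1, the light chain gene (minus strand, chr7:45457944-45459884, 4 exons), was at 242, 229 and 216 FPKM in Dnmt1 Control and at 220, 240 and 225 FPKM in Dnmt1 CKO, with means of 229 ± 12.9 and 228 ± 10.9 FPKM (SD, n = 3). Dnmt3a mice had Ftl1 at 212, 220 and 220 FPKM in control and at 241, 259 and 222 FPKM in CKO. The log2 fold change was 0.14 (limma, adjusted p = 0.66), or 0.15 without the library labelled Dnmt3a Control replicate 2 (limma, adjusted p = 0.74). Over the left-out libraries of the Dnmt3a line it ran from 0.089 to 0.20, and it was 0.08 under quantile normalization. Ftl1 levels are uncertain, because 50.9% of the 50-base stretches of its transcripts also occur in other annotated genes, among them the pseudogene Ftl1-ps1. Fth1 shares 1.59%. The ratio of heavy to light chain FPKM stayed between 2.64 and 3.07 in the 12 libraries.

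Ferroportin releases iron from the cell. Its gene Slc40a1 (minus strand, chr1:45908068-45926523, 8 exons) was at 5.25, 4.5 and 4.83 FPKM in Dnmt1 Control and at 3.68, 3.96 and 3.15 FPKM in Dnmt1 CKO. All CKO libraries were below all controls, at 74% of their mean. The log2 fold change of -0.43 (standard error 0.1, 95% confidence interval -0.68 to -0.17) had an unadjusted p of 0.0064 and did not pass the adjusted test (limma, adjusted p = 0.14). With the robust setting of limma it passed (adjusted p = 0.059), and over all alternatives the adjusted p ran up to 0.34. Slc40a1 of the Dnmt3a line was at 3.99, 3.3 and 4.87 FPKM in control and at 3.31, 3.25 and 3.96 FPKM in CKO. These groups overlapped (log2 fold change -0.19, limma, adjusted p = 0.78), and the 2 lines were not shown to differ (-0.24, limma, adjusted p = 0.74). Without the library labelled Dnmt3a Control replicate 2, which had the lowest Slc40a1 of its group, the Dnmt3a value was -0.33 and the difference between the lines -0.099 (limma, adjusted p = 0.72 and 0.9). Leaving out each library of that line in turn gave Dnmt3a values from -0.33 to -0.053, the last without Dnmt3a Control replicate 3.

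Ferroxidases oxidise exported iron so that transferrin can bind it. Cp, which encodes ceruloplasmin and is known in brain from astrocytes (plus strand, chr3:19957054-20009145, 20 exons), was at 2.57, 2.24 and 2.28 FPKM in Dnmt1 Control and at 2.73, 2.81 and 3.16 FPKM in Dnmt1 CKO. It was the 1 member whose CKO libraries all lay above their controls in that line, at 123% of the control mean. Its log2 fold change was 0.29 (95% confidence interval 0.068 to 0.50) and did not pass the adjusted test (limma, adjusted p = 0.22). Dnmt3a mice had Cp at 2.19, 2.29 and 2.21 FPKM in control and at 2.26, 2.91 and 2.15 FPKM in CKO, where 1 library, CKO replicate 2, stood above the rest. Heph, which encodes the membrane ferroxidase hephaestin (plus strand, chrX:96455359-96574485, 22 exons), ran from 0.856 to 1.45 FPKM over the 12 libraries. Its groups overlapped in both lines, with log2 fold changes of -0.079 and 0.02 (limma, adjusted p = 0.82 and 0.99).

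The iron regulatory proteins sense iron. Aco1 encodes the cytosolic aconitase that turns into one of them when its iron-sulfur cluster is lost (plus strand, chr4:40143081-40198338, 21 exons). It was at 8.87, 8.82 and 9.05 FPKM in Dnmt1 Control and at 8.06, 8.48 and 8 FPKM in Dnmt1 CKO. The groups did not overlap, and the log2 fold change of -0.12 (95% confidence interval -0.22 to -0.027) did not pass the adjusted test (limma, adjusted p = 0.24). Its Dnmt3a groups overlapped, at 8.84 ± 0.507 and 8.61 ± 0.375 FPKM (SD, n = 3). Ireb2, which encodes the other iron regulatory protein (plus strand, chr9:54863789-54912530, 22 exons), was at 17.5, 17.5 and 17.3 FPKM in Dnmt3a Control and at 17.2, 16.6 and 16 FPKM in Dnmt3a CKO. The CKO libraries were all slightly lower, at 95.1% of the control mean (log2 fold change -0.072, limma, adjusted p = 0.68). Over the left-out libraries that value ran from -0.098 to -0.046. Dnmt1 Control and Dnmt1 CKO overlapped for Ireb2, with means of 18.1 ± 0.895 and 17.1 ± 0.158 FPKM (SD, n = 3) (limma, adjusted p = 0.45).

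A wider list of 67 further genes of iron metabolism was read in the same fits. Of these, 65 were in the table and 54 were tested. In the Dnmt1 line 1 was higher and 1 lower, a share near the background of 3.15%, and the median log2 fold change of the 54 was -0.043, near the -0.02 of all rows. No gene of the list passed by limma in the Dnmt3a line (6 had an unadjusted p under 0.05, as had 1037 of the 14115 rows), and the median was 0.029. The largest means were those of Pcbp1, an iron chaperone gene, among 18 uptake genes (60.3 FPKM), Ncoa4, the receptor for ferritin turnover, in the ferritin group (28 FPKM), App, the amyloid precursor gene, among 7 genes of systemic control (416 FPKM), Slc48a1, a heme transporter gene, among 16 heme genes (38.4 FPKM) and Isca1, of iron-sulfur cluster assembly, among 22 mitochondrial genes (59.7 FPKM). None of these 5 passed the test in either line.

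The lower gene was Cpox, which encodes coproporphyrinogen oxidase of heme synthesis. It was at 12.9, 12.9 and 12.1 FPKM in Dnmt1 Control and at 10.2, 10.1 and 9.94 FPKM in Dnmt1 CKO, with no overlap. From a control mean of 12.6 ± 0.465 FPKM it fell to 10.1 ± 0.153 FPKM (SD, n = 3), and the log2 fold change was -0.32 (limma, adjusted p = 0.017). The call held without each of the 6 libraries in turn, with adjusted p from 0.024 to 0.096. The effect also differed between the lines, by -0.33 (limma, adjusted p = 0.015).

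The higher gene was Bmp6, a ligand that drives hepcidin in the liver. From a control mean of 2.41 ± 0.142 FPKM it rose to 3.17 ± 0.126 FPKM (SD, n = 3), and the log2 fold change was 0.38 (limma, adjusted p = 0.07). This call was lost without any 1 of the 6 libraries of the line, with adjusted p from 0.14 to 0.23. Lcn2, which encodes the siderophore-binding protein lipocalin 2, is described here by its values in each library. Its mean over the 12 libraries, 0.523 FPKM, exceeded the filter of 0.5 FPKM only through Dnmt1 CKO, so a difference of that group decided that it was tested. It was at 0.256, 0.551 and 0.202 FPKM in Dnmt1 Control and at 1.17, 0.717 and 1.14 FPKM in Dnmt1 CKO, and at 0.371, 0.511 and 0.44 FPKM in Dnmt3a Control and 0.273, 0.319 and 0.323 FPKM in Dnmt3a CKO. The 3 Dnmt1 CKO libraries stood above the other 9.

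**Figure D5:**
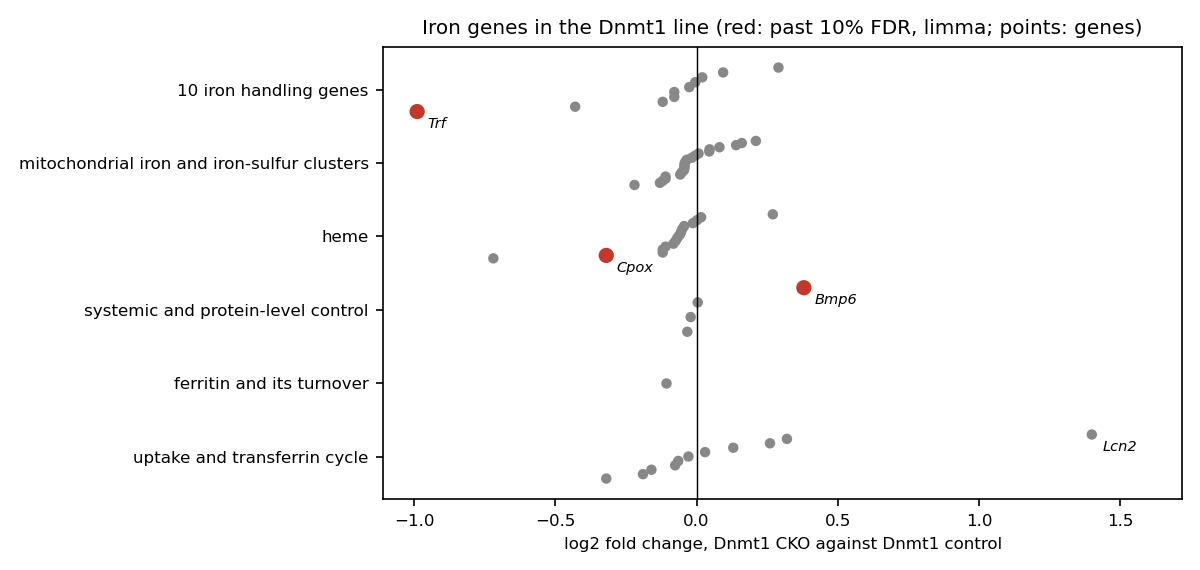
Log2 fold change of CKO over control in the Dnmt1 line for the 10 iron handling genes (top row) and the 54 tested genes of the wider iron list, in rows by functional group, with 1 point per gene, red past 10% FDR. The median of the 54 is -0.043, Cpox lies at -0.32, Bmp6 at 0.38 and Lcn2 at 1.40.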

How the data were processed

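The authors aligned reads to mm10 with TopHat and deposited FPKM values per gene from Cufflinks; tool versions and annotation are not given in the sources used here. FPKM are not counts, so no count test was run. Of 23850 rows, 302 exact duplicates were removed. Values were tested with limma 3.58.1 (R 4.3.3; lmFit, eBayes with trend) on log2(FPKM + 0.1), leaving out rows that averaged under 0.5 FPKM in the 12 libraries, with Benjamini-Hochberg adjustment over 14115 rows at 10% FDR. Each line was fitted alone, and the difference between lines over all libraries. A fold change on this scale understates that of low genes. The fits were tested on simulated data. Replicates are separate mice. Exact permutation of 3 against 3 cannot go below p = 0.1 and was not used.

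The members and lists were chosen with earlier results of these data known. Named were all members, listed genes past the threshold in a line and the most abundant of each list, the 5 rows most like Trf, and the targeted genes. Lcn2, in the difference between lines only, and the markers Mag, Sox10 and those of microglia were chosen after their values were seen. So were the markers Lhfpl3, Ptprz1, Cspg4, Vcan, Aqp4 and Gja1. The alternatives changed the pseudocount, filter, variance setting, scaling, block, covariate, symbol rows, FDR and libraries. Flvcr1 and Flvcr2 of the wider list and Hbb-bs of the blood list were matched through RefSeq synonyms. The Heph to Fth1 fragment numbers use the length of the longest coding transcript and are approximate. Iron-responsive elements were searched in GENCODE M21 transcripts. Sharing between genes was taken as words of 50 bases. The microglial list as a whole is not reported here.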

Additional observations from a re-analysis of the deposited data

Results flagged for a closer look

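Of the 10 members and the 54 tested genes of the wider list, 2 are given here as genes for which the CKO effect differed between the Dnmt1 and the Dnmt3a line by the test of that difference in limma. Over all rows tested, 300 of 14115 (2.13%) passed it. For Trf it differed by -1.24 on the log2 scale (adjusted p = 4.3e-05), with all 3 Dnmt1 CKO libraries below and all 3 Dnmt3a CKO libraries above their controls. For Cpox the difference was -0.33 (adjusted p = 0.015), and it passed the test in all 12 fits that left out 1 library each, with adjusted p from 0.0095 to 0.051. The fit also gave 1.81 for Lcn2 (adjusted p = 0.064), which is not counted as a result. This gene exceeded the filter on low values only through Dnmt1 CKO, the group in which it was high, so its p supports nothing. It passed in 4 of the 12 such fits, and not with no filter (adjusted p = 0.11), quantile normalization (0.16) or the replicate block (0.24). It did pass with a minimum mean of 0.1 FPKM (limma, adjusted p = 0.045) and with pseudocounts of 1 (0.051) and 0.01 (0.049). The same held without the trend (0.05), with the robust setting (0.022), median ratio scaling (0.061) and the Xist covariate (0.073). No cause was tested for any of these genes.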

How the results depend on the processing

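Trf kept its direction and its call in the Dnmt1 line and in the difference between the lines under every alternative run. Leaving out 1 library at a time gave log2 fold changes of -1.05 to -0.94 in the Dnmt1 line and -1.30 to -1.20 for the difference. Over all alternatives, 609 of 650 member values kept their direction and side of the threshold, 39 changed sign and 2 newly passed. The count of members called in the Dnmt1 line was 2 with the robust setting of limma, which added Slc40a1. In the difference between the lines it was 1 to 2 over the left-out libraries, Fth1 being added without Dnmt1 Control replicate 3. The wider list in the Dnmt1 line had 2 genes called, and 1 with the replicate block, with Xist as a covariate, and at 5% FDR, and 1 to 2 over the left-out libraries. It was 3 without the trend and under median ratio scaling, which added Cybrd1, and with the robust setting, which added Lcn2. With all 12 libraries in 1 model it was 2, Cpox and Lcn2. In the Dnmt3a line no member and no gene of the wider list was called without any library in turn.

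The values that changed sign belonged to genes that did not pass the test. In the Dnmt1 line Fth1 was 0.047 under quantile normalization and 0.0067 with Xist as a covariate, and Ftl1 was 0.018 under median ratio scaling and 0.0085 with the covariate. In the Dnmt3a line Tfrc was -0.0043 under median ratio scaling and -0.0091 under quantile normalization. In the difference between the lines the same scalings gave 0.027 and 0.03 for Slc11a2 and 0.025 and 0.032 for Ireb2, which was 0.0013 with the covariate. Over left-out libraries the ranges that crossed 0 were, in the Dnmt1 line, Tfrc -0.11 to 0.30, Fth1 -0.12 to 0.03, Ftl1 -0.045 to 0.036, Heph -0.15 to 0.04, in the Dnmt3a line Tfrc -0.075 to 0.069, Slc11a2 -0.0072 to 0.055, Cp -0.014 to 0.20, Heph -0.11 to 0.21, Aco1 -0.07 to 0.0085, and in the difference Tfrc -0.11 to 0.30, Slc11a2 -0.035 to 0.027, Heph -0.29 to 0.03, Ireb2 -0.045 to 0.025. The cause was not tested.

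Over the alternatives, rows called ran from 162 to 609 in the Dnmt1 line, 1 to 20 in the Dnmt3a line and 206 to 327 in the difference. Whether the replicate numbers pair the mice is not known. As deviations from group means, same-numbered libraries correlated at -0.06, 0.04 and -0.03 in the Dnmt1 line. In the Dnmt3a line they correlated at most at 0.02. Differently numbered libraries of the Dnmt1 line ran from -0.09 to 0.11, so these correlations cannot decide the question. With the replicate block 162 rows were called in the Dnmt1 line against 444, and Trf had an adjusted p of 0.047 (limma). Whether a smaller change of Heph, Cp or Slc40a1 was present could not be told at this number of mice. Levels of Ftl1, and of Trf against Gm20425, depend on how shared reads were assigned.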

Other observations

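Xist, the RNA of the inactive X chromosome, was high in 3 of the 12 libraries, at 46.2 to 49.4 FPKM. These were replicate 3 of Dnmt1 Control, Dnmt3a Control and Dnmt3a CKO. In the Dnmt1 CKO libraries it was at 1.69, 1.8 and 1.85 FPKM, and in the other 6 libraries it was at 0.0306 to 0.0853 FPKM. In each of these 3 groups, Tfrc, Fth1, Heph and Ireb2 had their lowest value in the library with high Xist, and 1405 of the 14115 rows tested (9.95%) did the same. The 2 such libraries of the Dnmt3a line were also those with the lowest Ttr, so these features cannot be told apart there.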
